A study of Ovis aries with 15 samples.

Results

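The genes described are ATF4 and a set of genes known as its targets or partners: the stress response factors ATF5, DDIT3 and TRIB3, asparagine synthetase ASNS, the serine synthesis enzymes PHGDH, PSAT1 and PSPH, and the mitochondrial folate enzymes SHMT2 and MTHFD2. They were listed by name for their role, with earlier results of these data known. All 10 were found among the 24691 features of the ovine mammary gland table, 9 of them by symbol. MTHFD2 is not listed by symbol and was matched through its NCBI gene ID to the feature LOC100137069, so its values are those of that feature.

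ATF4 is a transcription factor of the integrated stress response. When kinases phosphorylate the initiation factor eIF2, most protein synthesis slows while translation of the ATF4 message increases, and ATF4 then activates genes for amino acid synthesis, amino acid uptake and stress adaptation. In the mammary gland, amino acids drawn from blood or made in the cell supply the synthesis of milk protein. RNA was measured here, and the translation of ATF4 was not.

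RNA came from needle biopsies of mammary parenchyma of Romney ewes, taken at about day 135 of gestation (late pregnancy) and again at about day 15 post partum (lactation). According to the labels a library pooled RNA of 3 ewes in late pregnancy and of 2 in lactation, while the study's methods give 3 throughout. The ewes' own dams had been fed ad libitum, maintenance or sub-maintenance pasture from day 21 to day 50 of gestation. These groups are called HMLP, MMLP and LMLP in late pregnancy, with 3 pools each, and HML, MML and LML in lactation, with 2 pools each. All these dams then received the maintenance allowance up to day 140, and all the ewes themselves were managed and fed alike. Reads on genes numbered 7597938 to 19823166 in the 9 late pregnancy libraries and 10352962 to 25679416 in the 6 lactation libraries. Levels are given as scaled RPKM, which is CPM (reads scaled to a common library total) per kilobase of exon after the TMM scaling of edgeR, so that levels of different genes can be set side by side.

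In the deposited annotation, ATF4 lies on chromosome 3 from 214930363 to 214931656, DDIT3 on chromosome 3 from 161849923 to 161853827, SHMT2 on chromosome 3 from 162102990 to 162108218 and the MTHFD2 feature on chromosome 3 from 95965711 to 95996540. ATF5 lies on chromosome 14 from 55298568 to 55302942, TRIB3 on chromosome 13 from 59928054 to 59934630 and ASNS on chromosome 4 from 14991061 to 15012528. PHGDH lies on chromosome 1 from 96210897 to 96241780, PSAT1 on chromosome 2 from 58081424 to 58109090 and PSPH on chromosome 24 from 27677375 to 27684359. The labels name the genome build Oar_v3.1 and the study's methods name version 3.2, so the positions are quoted as the table gives them. Exon reads were placed uniquely for all of these genes except ASNS, at 96.8% of its reads, and the MTHFD2 feature, at 71.2%.

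Of the 10 genes, 9 were higher in lactation than in late pregnancy, none was lower, and SHMT2 was not called. The changes ran from 1.48-fold for PHGDH to 71.4-fold for TRIB3, and 7 of the 9 exceeded 2-fold. Among the 13345 features tested, 33.1% were called higher and 35.2% lower by edgeR at an adjusted p under 0.05. The median log2 change was 1.80 over the 10 genes and -0.03 over all features tested. For 7 of the genes every lactation library lay above every late pregnancy library, which held for 20.2% of the features tested, and for DDIT3, PHGDH and SHMT2 the states overlapped. In a bulk biopsy, fewer cells of a type and less RNA per cell cannot be told apart.

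**Figure D1:**
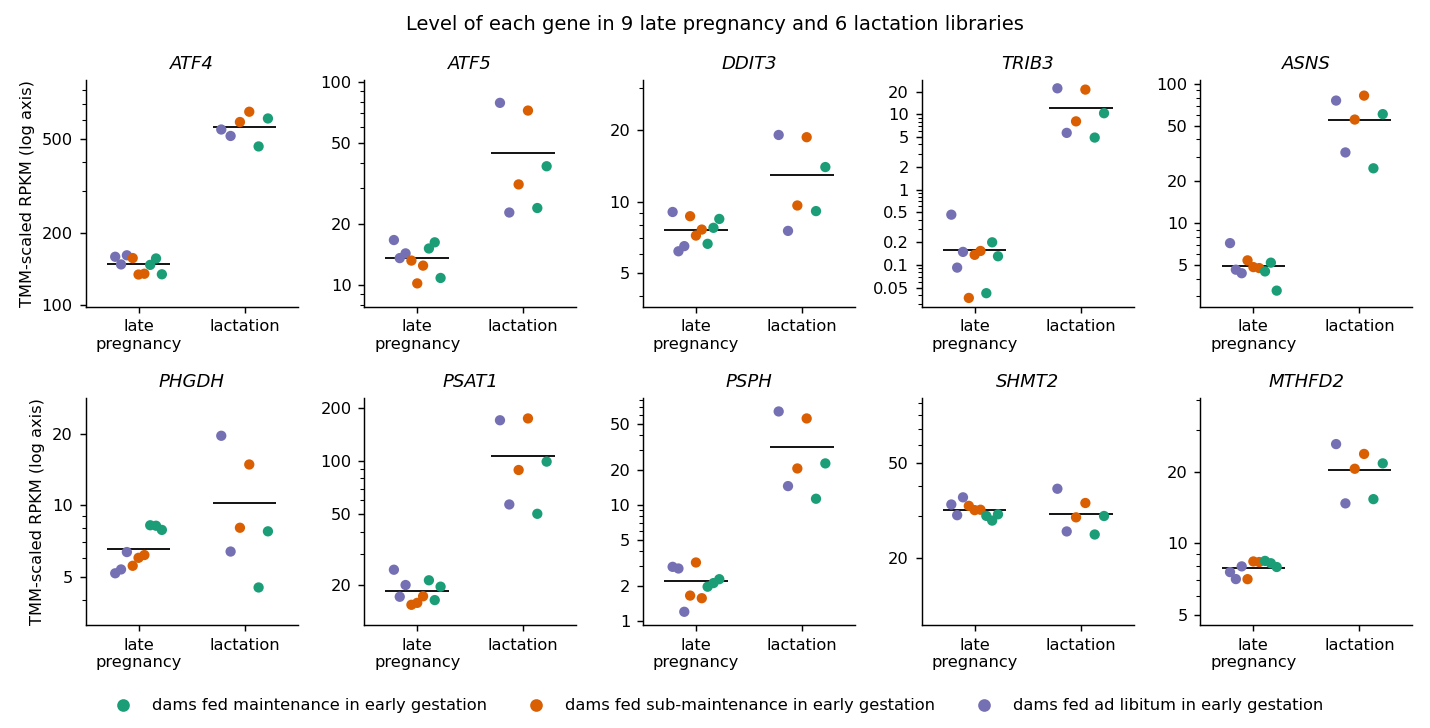
Level of each of the 10 genes (TMM-scaled RPKM, log axis) in the 9 late pregnancy and 6 lactation libraries, coloured by the feeding of the ewes' dams, with a line at the mean of each state. With library size alone in place of TMM, ATF5, DDIT3, PHGDH and MTHFD2 turn lower in lactation. The states do not overlap for 7 genes, and the lactation libraries of most targets spread widely.

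These directions depend on how the libraries are scaled. The milk protein genes CSN2, CSN1S1, CSN1S2, CSN3, LALBA, BLG and GLYCAM1 together took 71.3% to 75.8% of the counted reads in lactation and 13.7% to 23.4% in late pregnancy. Scaling by library size alone moved the median log2 change of all features from -0.03 to -1.94, with 352 features called higher and 12705 lower in place of 4419 and 4703. Upper quartile scaling gave 3420 higher and 5990 lower. On library size alone 4 of the 10 genes were called higher (TRIB3 at a log2 change of 4.30, PSPH at 1.90, ASNS at 1.57 and PSAT1 at 0.62) and 4 lower (SHMT2 at -1.96, PHGDH at -1.32, DDIT3 at -1.16 and MTHFD2 at -0.55), while ATF4 at 0.02 and ATF5 at -0.20 were not called. Taken against that lower median, ATF4 stood 1.95 above it on the log2 scale, ATF5 1.73, MTHFD2 1.38, DDIT3 0.78 and PHGDH 0.61, while SHMT2 stood at -0.02. This step takes most features as unchanged, as TMM does, so it is no separate check of the directions. The values below are those after TMM scaling.

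Marker RNA of several cell types also differed between the states. Summed over 6 luminal epithelial markers (KRT8, KRT18, KRT19, EPCAM, ELF5 and CDH1), the level was 1417 to 1736 CPM in late pregnancy and 2290 to 2551 CPM in lactation, where KRT18, KRT19, EPCAM and ELF5 were called higher and KRT8 and CDH1 were not called. The sum of 10 proliferation genes went from 138 to 246 CPM in late pregnancy to 37.1 to 61.4 CPM in lactation, and that of 6 fibroblast markers from 1311 to 2092 CPM to 618 to 998 CPM. No gene of any marker list was at 0 in all libraries, and the part of these cell types in the changes was not tested.

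ATF4 was the most abundant of the 10 genes in both states and one of the least variable. Its level was 134 scaled RPKM in the lowest late pregnancy library, 148 in the median one and 162 in the highest, against 464, 567 and 649 in lactation. The states were far apart, and the highest lactation library stood only 1.40 times above the lowest. ATF4 RNA was 3.79-fold higher in lactation (log2 change 1.92 ± 0.07 SE, edgeR adjusted p = 7.3e-15).

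ATF5, a factor of the same family that is also translated more when eIF2 is phosphorylated, was at 10.2, 13.6 and 16.7 scaled RPKM in the lowest, median and highest late pregnancy library. In lactation it was at 22.8, 34.9 and 79.0. No lactation library reached down to the late pregnancy range, but HML pool 1 at 79.0 and LML pool 2 at 72.3 stood apart from the other lactation libraries, none of which passed 38.5. The change was 3.2-fold (log2 change 1.68 ± 0.23 SE, adjusted p = 1.9e-06).

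DDIT3 encodes CHOP, a factor that ATF4 induces and that is linked to cell death under lasting stress. It was a low-level gene, at 6.18, 7.63 and 9.05 scaled RPKM in late pregnancy (lowest, median, highest) and 7.53, 11.8 and 19.1 in lactation. HML pool 2 fell inside the late pregnancy range and the other 5 lactation libraries lay above it. The change was the second smallest of the called genes at 1.66-fold (log2 change 0.73 ± 0.17 SE, adjusted p = 7.4e-04). It was not called among the libraries of lane 7 alone (log2 change 0.60, adjusted p = 0.083), while lane 8 alone gave 0.85 (adjusted p = 0.0016).

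TRIB3 encodes a pseudokinase that ATF4 induces and that acts back on the response. It was nearly absent in late pregnancy, at 0.0366, 0.137 and 0.466 scaled RPKM, from 1 to 10 reads a library. In lactation it was at 4.93, 9.23 and 22.2 scaled RPKM, from 32 to 111 reads. Even the lowest lactation library was over any of late pregnancy, and the change was the largest of the 10 genes (log2 change 6.16 ± 0.42 SE, adjusted p = 9.5e-11). With so few reads in late pregnancy the size of that fold is poorly set, and it ran from a log2 change of 5.91 to 6.56 as single libraries were left out. With limma on log2 of the quantile-normalized RPKM + 1, a scale that understates the change of low genes, it was 3.27 (adjusted p = 2.1e-09).

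ASNS, which makes asparagine from aspartate and glutamine, was at 3.30, 4.78 and 7.22 scaled RPKM in late pregnancy and at 24.9, 58.2 and 82.5 in lactation. All lactation libraries lay above all those of late pregnancy. The change was 11-fold (log2 change 3.46 ± 0.21 SE, adjusted p = 1.9e-11).

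The enzymes of serine synthesis changed by very different amounts. PHGDH, which oxidises 3-phosphoglycerate at the entry of the pathway, was at 5.17, 6.17 and 8.24 scaled RPKM in late pregnancy and at 4.51, 7.91 and 19.6 in lactation. Only HML pool 1 at 19.6 and LML pool 2 at 14.8 exceeded the late pregnancy range, and MML pool 1 at 4.51 fell below it. The change of 1.48-fold was called (log2 change 0.57 ± 0.23 SE, adjusted p = 0.038), but the call was lost when any of 7 libraries was left out. The log2 change was 0.29 (adjusted p = 0.20) without HML pool 1 and 0.42 (adjusted p = 0.13) without LML pool 2, and the adjusted p was 0.052 to 0.058 without HMLP pool 1, HMLP pool 2, LMLP pool 1, LMLP pool 2 or LMLP pool 3. The call was lost as well with no filter on low counts (adjusted p = 0.055), with at least 10 reads in every library (0.075), with upper quartile scaling (0.12), with limma on the quantile-normalized RPKM (0.14) and in lane 7 alone (0.37).

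PSAT1, the aminotransferase of the next step, was at 15.5, 17.3 and 24.4 scaled RPKM in late pregnancy and 50.4, 94.2 and 174 in lactation. The states did not overlap, and the change was 5.70-fold (log2 change 2.51 ± 0.22 SE, adjusted p = 3.3e-09). It passed SHMT2 to become the second most abundant of the 10 genes.

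PSPH, the phosphatase that releases serine, was at 1.20, 2.12 and 3.19 scaled RPKM in late pregnancy and 11.3, 21.7 and 63.9 in lactation. The states did not overlap although HML pool 1 held 5.65 times the level of MML pool 1. The change was 13.6-fold (log2 change 3.77 ± 0.34 SE, adjusted p = 6.4e-09), and late pregnancy libraries held 11 to 64 reads of the gene.

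The mitochondrial folate enzymes did not change alike. SHMT2, which converts serine to glycine and charges folate, was at 28.7, 31.8 and 36.0 scaled RPKM in late pregnancy and 25.1, 29.8 and 39.1 in lactation. The states overlapped broadly, and the log2 change was -0.06 ± 0.08 SE (adjusted p = 0.50). SHMT2 was called lower with upper quartile scaling (log2 change -0.21, adjusted p = 0.024) and with limma on the quantile-normalized RPKM (-0.27, adjusted p = 0.0038), as well as on library size alone.

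MTHFD2, which oxidises the folate that SHMT2 charges, was at 7.06, 7.99 and 8.42 scaled RPKM in late pregnancy and 14.7, 21.1 and 26.1 in lactation. The states did not overlap, and the late pregnancy libraries spread by a CV of only 6.85%. The change was 2.55-fold (log2 change 1.35 ± 0.10 SE, adjusted p = 3.9e-10), and 1.31 on the log2 scale when only uniquely placed reads were counted.

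The order of the levels differed between the states. In late pregnancy ATF4 (148 ± 11.3 scaled RPKM, SD, n = 9) and SHMT2 (31.8 ± 2.21) led with no overlap with each other or with the next gene. PSAT1 (18.6 ± 2.94) and ATF5 (13.6 ± 2.23) followed and overlapped, as did MTHFD2 (7.88 ± 0.54), DDIT3 (7.57 ± 1.02), PHGDH (6.55 ± 1.23) and ASNS (4.93 ± 1.05), each with its neighbour. PSPH (2.19 ± 0.68) and TRIB3 (0.156 ± 0.128) lay lowest without overlap. In lactation ATF4 (562 ± 67.3, n = 6) again led alone, and below it PSAT1 (107 ± 53.9), ASNS (55.4 ± 23.1), ATF5 (44.6 ± 24.8), PSPH (31.4 ± 22.4), SHMT2 (30.6 ± 5.26), MTHFD2 (20.3 ± 4.55), DDIT3 (13.0 ± 5.03), TRIB3 (12.1 ± 7.74) and PHGDH (10.2 ± 5.79) each overlapped with the next.

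Reads that fell on introns gave another readout of the same genes from reads that the exon counts do not use. ATF4 had no intronic read in any library. Its annotated exons take 1202 bases of the span from 214930363 to 214931656, which leaves little intron for reads to fall on. Of the other 9 genes, 8 were higher in lactation and SHMT2 was not called, with 29.0% of the 10344 features tested called higher. TRIB3 had at most 2 intronic reads in a late pregnancy library and at least 7 in a lactation library (adjusted p = 1.2e-10), too few for a fold.

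PSPH held 1 to 9 intronic reads in a late pregnancy library, and 27 to 66 in a lactation library, and rose by a log2 change of 5.12 ± 0.32 SE (adjusted p = 1.3e-12). PSAT1, at 19 to 122 and 156 to 558 reads, rose by 4.40 ± 0.28 (adjusted p = 2.7e-12). These and the following intronic changes stand beside smaller exonic ones. PHGDH, whose exonic call was unstable, rose on introns by 2.23 ± 0.35 (adjusted p = 9.5e-06), and MTHFD2 rose by 3.15 ± 0.20 (adjusted p = 1.4e-12).

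The remaining genes changed by amounts closer to those on exons. ASNS rose on introns by 3.78 ± 0.28 (adjusted p = 4.2e-11), ATF5 by 2.39 ± 0.32 (adjusted p = 9.0e-07) and DDIT3 by 0.95 ± 0.32 (adjusted p = 0.015). SHMT2 changed by 0.15 ± 0.14 (adjusted p = 0.38). DDIT3 lost its intronic call without LML pool 2 (log2 change 0.58, adjusted p = 0.10) and on library size alone (0.35, adjusted p = 0.33), where SHMT2 was called lower at -0.48 and the other 7 stayed higher. Intronic reads of MTHFD2 were 5.19% of its reads in late pregnancy and 17.2% in lactation, those of PSAT1 6.20% and 20.6%, and those of PHGDH 7.85% and 22.2%. The difference between the exonic and the intronic change of a gene was not tested.

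**Figure D2:**
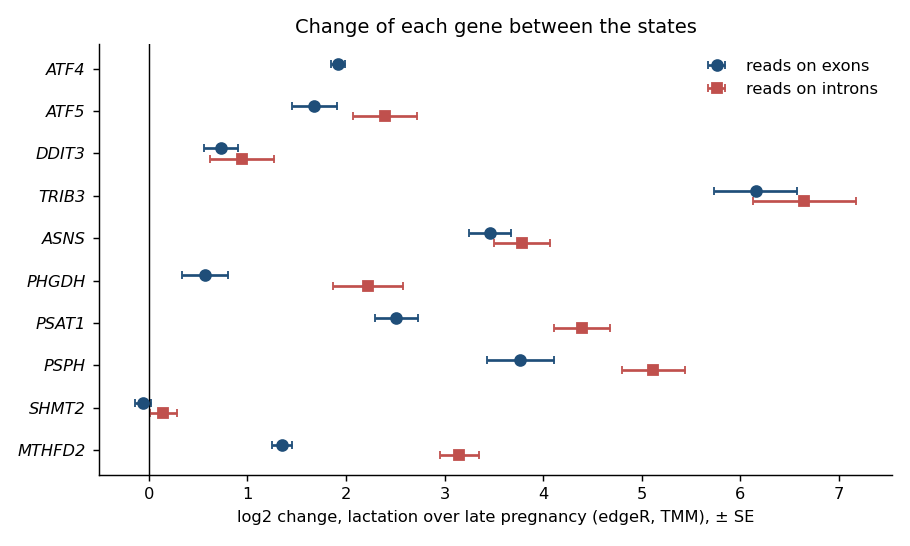
Log2 change of each gene from late pregnancy to lactation (edgeR after TMM scaling, with bars of 1 SE) from reads on exons (circles) and on introns (squares). ATF4 has little annotated intron and no intronic reads, and SHMT2 lies near 0 in both. The intronic change exceeds the exonic one most for PSAT1, MTHFD2 and PHGDH. On library size alone the exonic changes of ATF5, DDIT3, PHGDH and MTHFD2 turn below 0.

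Ratios of genes within a library depend on its scaling only through the pseudocount, which weighs on genes of low level such as TRIB3. They were taken as the log2 of RPKM + 0.1 over RPKM + 0.1 and compared between the states by a two-sided exact permutation test, whose smallest possible p over the 5005 splits is 0.0004. Of 13 ratios, 10 passed an adjusted p under 0.05, and the share among ratios of other features was not computed. Against ATF4, TRIB3 gained 3.78 on the log2 scale, PSPH 1.65 and ASNS 1.46, each with no overlap between the states (exact permutation p = 0.0004, adjusted p = 7.4e-04). The gain of TRIB3 was 2.03 with a pseudocount of 1.

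Other genes fell relative to ATF4, which itself stood 1.95 above the median log2 change of all features. A gene at that median would fall against ATF4 by about as much. SHMT2 over ATF4 differed by -1.98 and DDIT3 over ATF4 by -1.20, both without overlap (exact permutation p = 0.0004, adjusted p = 7.4e-04). PHGDH over ATF4 differed by -1.41 and MTHFD2 over ATF4 by -0.57, both with overlap (exact permutation p = 0.0012, adjusted p = 0.0017). ATF5 over ATF4 (-0.36, exact permutation p = 0.15) and PSAT1 over ATF4 (0.45, exact permutation p = 0.088) did not pass the test. ATF5 over ATF4 passed without HML pool 1 (-0.57, adjusted p = 0.021), and PSAT1 over ATF4 passed without HML pool 2 (0.58, adjusted p = 0.048) or MML pool 1 (0.58, adjusted p = 0.039).

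Within pathways, PHGDH over PSAT1 fell from between -2.22 and -0.999 in late pregnancy to between -3.63 and -3.10 in lactation (difference -1.87, exact permutation p = 0.0004). SHMT2 over SHMT1, its mainly cytosolic counterpart, fell from between 3.92 and 4.98 to between 1.71 and 2.57 (difference -2.30, exact permutation p = 0.0004), so SHMT2 remained the more abundant in every library. MTHFD2 over MTHFD2L, a mitochondrial relative of low level, differed by 0.57 (exact permutation p = 0.0080, adjusted p = 0.010), but by -0.05 (adjusted p = 0.65) with a pseudocount of 1. MTHFD2 over MTHFD1, the cytosolic enzyme, differed by 0.23 (exact permutation p = 0.12, adjusted p = 0.13), and by 0.34 (adjusted p = 0.013) without MML pool 1.

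**Figure D3:**
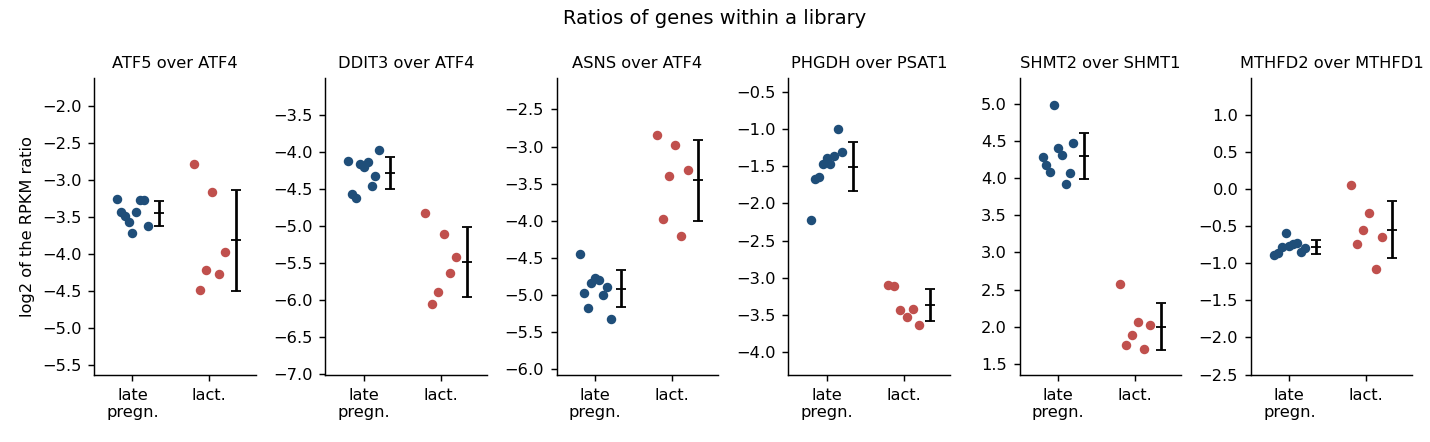
Log2 ratio of the RPKM of 2 genes in each library, by state, with the mean and SD of the state beside the points. Each panel spans 4 log2 units. PHGDH over PSAT1, SHMT2 over SHMT1, DDIT3 over ATF4 and ASNS over ATF4 do not overlap between the states, while ATF5 over ATF4 and MTHFD2 over MTHFD1 do.

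Among the 6 lactation libraries most of the genes ranked alike. ASNS was at 82.5 scaled RPKM in LML pool 2, 76.1 in HML pool 1, 60.8 in MML pool 2, 55.6 in LML pool 1, 32.3 in HML pool 2 and 24.9 in MML pool 1. PSAT1 held exactly that order (174, 170, 99.3, 89.1, 56.9 and 50.4 scaled RPKM). TRIB3 and PSPH held it except that HML pool 1 came above LML pool 2, at 22.2 against 21.4 for TRIB3 and 63.9 against 55.6 for PSPH.

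The spread was largest for PSPH, whose highest library held 5.65 times its lowest, followed by TRIB3 at 4.51, PHGDH at 4.35, ATF5 at 3.47, PSAT1 at 3.45 and ASNS at 3.32. It was smaller for DDIT3 at 2.53, MTHFD2 at 1.78, SHMT2 at 1.56 and ATF4 at 1.40. In late pregnancy the same ratio of highest to lowest was between 1.19 and 2.66 except for TRIB3, at 12.8 from 1 to 10 reads. In each dam feeding group 1 pool was among the 3 highest and 1 among the 3 lowest in ASNS. The mean of the 2 MML pools was the lowest of the 3 group means for 9 of the 10 genes, ATF4 being the exception, for example 17.0 scaled RPKM against 39.2 in HML and 38.1 in LML for PSPH. The genes rank alike, so these are not 9 separate results, and the share over all features was not computed. The MML pools also differed, with ASNS lowest in pool 1 (24.9) and among the 3 highest in pool 2 (60.8). Dam feeding within lactation was not tested.

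Across the 6 lactation libraries Pearson's r of log2(CPM + 1) with ASNS was between 0.865 for DDIT3 and 0.965 for PSAT1 for the 9 other genes. Spearman's rho was between 0.829 for ATF4 and 1 for PSAT1. None of the 18 relations computed in the 2 states had an adjusted p under 0.05. PSAT1 was at that limit (r 0.965, exact permutation p = 0.0028, adjusted p = 0.050), and exact permutation p for the other 8 was between 0.0097 and 0.039, with adjusted p between 0.071 and 0.078. Adjusted exact permutation p of rho was 0.050 for PSAT1 and 0.075 to 0.12 for the others. A rho of 1 over 6 libraries has the smallest exact permutation p that rho can reach, 0.0028. Adjusted over 18 relations, a single such rho gives 0.050, so it could not pass alone.

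Without the pair of libraries farthest from the ASNS median, HML pool 2 and MML pool 1, r was 0.19 for ATF4 and 0.80 to 0.99 for the other 8 genes. These r are over 4 libraries of a narrower range. As single lactation libraries were left out, r of ATF4 ran from 0.72 to 0.996. Without HML pool 1, 6 of the 9 relations passed an adjusted p under 0.05, and leaving out any other lactation library gave none. Each lane holds 3 lactation libraries, too few for a relation within a lane. The libraries with the most ASNS, LML pool 2 and HML pool 1, held 11957164 and 9014506 counted reads and 75.3% and 71.3% milk protein reads. Those with the least, MML pool 1 and HML pool 2, held 24001031 and 13158257 counted reads and 73.6% and 75.8% milk protein reads. Of the lactation libraries HML pool 1 had the fewest reads on genes, 10352962. Its 9014506 counted reads were a smaller part of these than in any other lactation library. LML pool 2, for example, held 11957164 counted of 12684693 reads on genes. The part of depth, or of this share, in the relation and in the high values of HML pool 1 was not tested.

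**Figure D4:**
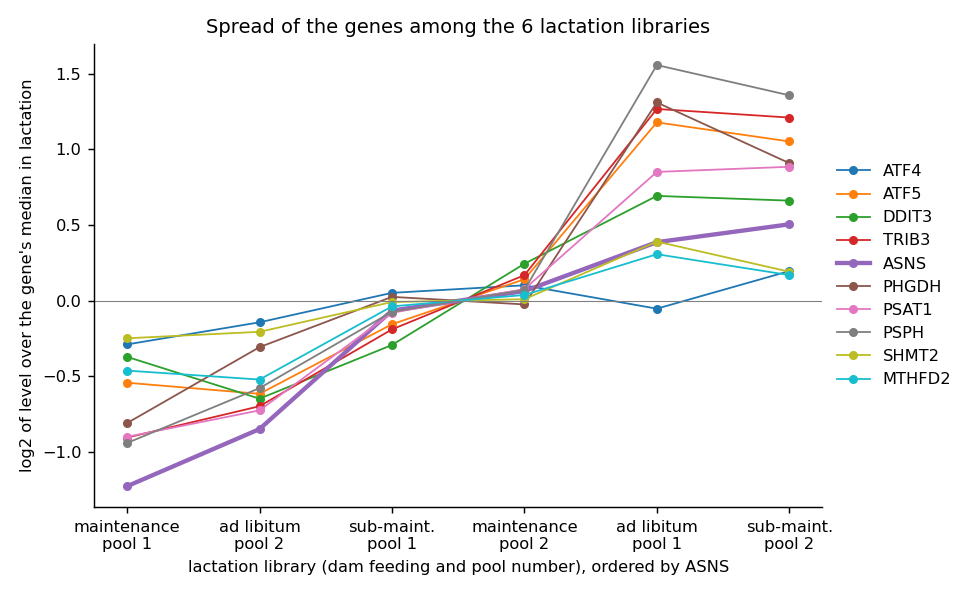
Log2 of the level of each gene over its own median in lactation, for the 6 lactation libraries in the order of ASNS (thick line). PSPH, TRIB3, PHGDH and ATF5 stand highest above their medians in HML pool 1 and LML pool 2, and ATF4, SHMT2 and MTHFD2 vary least.

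The genes most like ASNS over the 6 lactation libraries, among 8872 genes whose mean reached 5 CPM, were the feature LOC101106384 (r 0.995), ANKRD22 (r 0.994), CEBPG (r 0.990), CHAC1 (r 0.987) and KDM4A (r 0.983). Among all 8872, PSAT1 ranked 10, MTHFD2 17, TRIB3 46, PSPH 66, SHMT2 72, ATF5 90, PHGDH 91, ATF4 139 and DDIT3 144. These r are descriptive, over 6 libraries that share the same depths and scaling. In size the pattern differed, since LOC101106384 ranged only from 191 to 214 CPM while CHAC1 ranged from 11.3 to 44.5 CPM.

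The feeding of the ewes' dams was compared in late pregnancy, where each group has 3 pools. Feeding and lane are partly mixed, and lane was not in the models of dam feeding. All LMLP pools were in lane 8, while HMLP and MMLP had pools 1 and 2 in lane 7 and pool 3 in lane 8. In lactation the HML pools were in lane 7, the LML pools in lane 8, and MML pools 1 and 2 in lanes 7 and 8. None of the 9 genes tested was called (TRIB3 did not pass the filter on low counts), with 0.0% of the 13747 features called by edgeR, 571 features at an unadjusted p under 0.05, and 20 features but none of these genes called by DESeq2. PHGDH had the smallest p of the 9 and was the only one with an unadjusted p under 0.05 in edgeR. It was at 7.88 to 8.24 scaled RPKM in MMLP, 5.56 to 6.17 in LMLP and 5.17 to 6.36 in HMLP.

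For PHGDH, singled out by its smallest p, every MMLP pool thus lay above every pool of both other groups. The share of all features with such a gap was not computed. PHGDH differed by a log2 change of -0.45 in LMLP and -0.53 in HMLP (edgeR adjusted p = 0.65, DESeq2 adjusted p = 0.069). The change between the states did not differ by dam feeding at the threshold for any of the 10 genes. In that test 0.0% of 14073 features were called by edgeR, 913 features had an unadjusted p under 0.05, and DESeq2 called 18 features and none of these genes. PHGDH was the only one of the 10 with an unadjusted p under 0.05 (edgeR adjusted p = 0.75). In lactation PHGDH was at 4.51 and 7.77 scaled RPKM in the MML pools, 8.04 and 14.8 in LML, and 6.39 and 19.6 in HML.

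Of 7 genes of eIF2 signalling, 4 were higher in lactation and none lower. Their median log2 change was 0.68 against -0.03 for all features. Over all features tested 33.1% were called higher and 35.2% lower, shares that also stand beside the counts of the lists below. EIF2AK3, which encodes the endoplasmic reticulum kinase PERK, changed by 0.83 ± 0.06 SE (adjusted p = 4.0e-10), and EIF2AK2, the kinase PKR, by 1.02 ± 0.11 (adjusted p = 8.9e-08). The subunits that direct the phosphatase to eIF2, PPP1R15A and PPP1R15B, changed by 0.68 ± 0.10 and 1.17 ± 0.07 (adjusted p = 6.8e-06 and 1.2e-11). EIF2AK1 (0.09), EIF2AK4 (-0.09), which encodes the amino acid sensor GCN2, and EIF2S1 (0.12), the eIF2 subunit that is phosphorylated, were not called. With library size in place of TMM all 7 were lower.

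Of 27 other genes known as ATF4 targets, 25 were found and 21 tested, of which 15 were higher and 2 lower, with a median log2 change of 0.91. The largest changes were those of CHAC1, which degrades glutathione (6.17 ± 0.35 SE, adjusted p = 6.0e-12), ATF3, a transcription factor (5.50 ± 0.15, adjusted p = 2.1e-16), and PYCR1, an enzyme of proline synthesis (2.75 ± 0.12, adjusted p = 1.8e-13). CTH, which makes cysteine from cystathionine, fell by 2.59 on the log2 scale (adjusted p = 1.3e-13), and EIF4EBP1, a repressor of cap-dependent translation, fell by 1.45 (adjusted p = 6.5e-10). Without TMM 5 were higher, CHAC1, ATF3 and PYCR1 among them, and 15 lower.

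The glycine and folate genes around SHMT2 and MTHFD2 showed no common direction, with 8 of 20 tested genes higher, 6 lower and a median log2 change of -0.07. SDSL, a relative of serine dehydratase, had the largest change (6.74 ± 0.17 SE, adjusted p = 1.1e-16), from 0.366 ± 0.222 CPM to 38.1 ± 4.62 CPM (SD, n = 9 and 6 libraries). SHMT1 changed by 2.25 ± 0.13 (adjusted p = 5.3e-12), ALDH1L2, a mitochondrial enzyme of formyl-folate, by 1.18 ± 0.26 (adjusted p = 5.1e-04), and MTHFD1 by 1.12 ± 0.08 (adjusted p = 1.1e-10). MTHFD2L changed by 0.58 (adjusted p = 0.045). TYMS, which makes thymidylate and is also in the proliferation list, was lower at a log2 change of -2.54, GGH, which trims folate, at -1.37, and MTHFD1L, which releases formate in mitochondria, at -0.77 (adjusted p = 9.0e-10, 7.6e-11 and 0.0013). Scaled by library size, SDSL and SHMT1 were higher and the other 18 lower.

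Of 18 tested genes of other amino acid synthesis, 10 were higher and 4 lower, with a median log2 change of 0.26. ASS1, which makes argininosuccinate, changed by 3.14 ± 0.15 SE (adjusted p = 3.8e-13) and ARG2, the mitochondrial arginase, by 1.99 ± 0.09 (adjusted p = 1.5e-13), beside PYCR1. GPT, an alanine aminotransferase, changed by -1.13 (adjusted p = 1.4e-04), beside CTH. With no TMM scaling 2 were higher and 15 lower.

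All 16 genes of the XBP1 and ATF6 arm of the unfolded protein response, which expands the folding capacity of the endoplasmic reticulum, were higher, with a median log2 change of 1.04. The largest were DNAJC3 (1.53 ± 0.07 SE, adjusted p = 3.6e-13), XBP1 (1.49 ± 0.06, adjusted p = 7.4e-14) and SDF2L1 (1.26 ± 0.12, adjusted p = 1.2e-08), and on library size alone all 16 were lower. The sum of these 16 genes was 4057 CPM in HML pool 2, 4006 in LML pool 1, 3892 in MML pool 2, 3823 in LML pool 2, 3243 in HML pool 1 and 3186 in MML pool 1. MML pool 1 was thus the lowest in this sum and in ASNS, while HML pool 2 was the highest in the sum and the second lowest in ASNS.

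**Figure D5:**
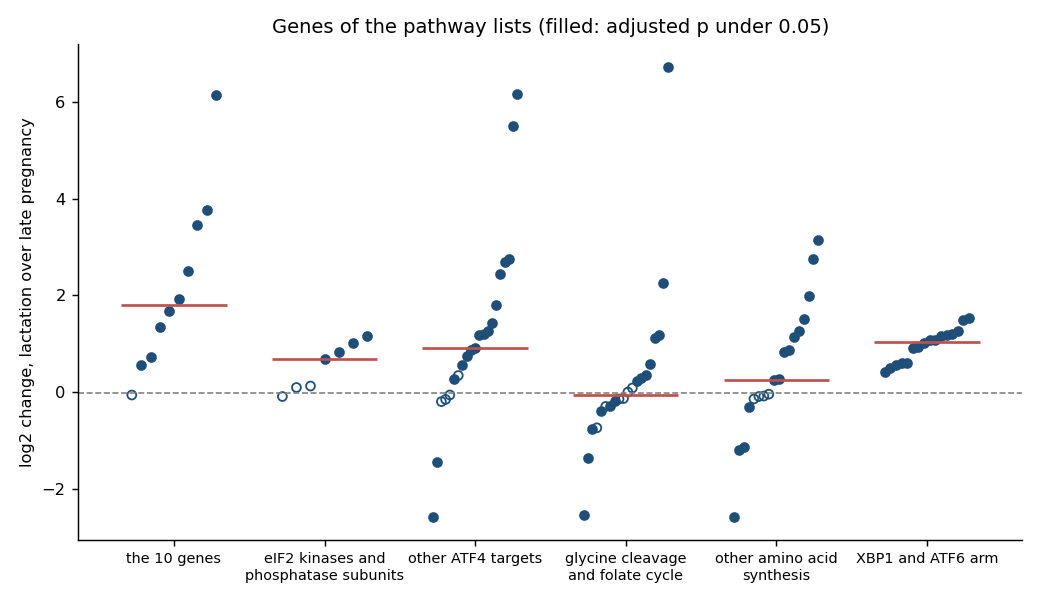
Log2 change from late pregnancy to lactation (edgeR, TMM) of each tested gene of the 10 genes and 5 pathway lists. Filled points passed an adjusted p under 0.05, red lines are list medians and the dashed line is the median of all features at -0.03. On library size alone the medians of all 6 lists fall below 0.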

How the data were processed

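The authors aligned paired TruSeq V2 reads to the sheep genome with CLC Genomics Workbench, and the deposited table covers all 15 libraries. Its counts are reads that the authors placed on exons and on whole genes, without normalization. The authors also deposited RPKM and the same RPKM after quantile normalization across libraries. The table also holds the authors' own comparison of the states by a Baggerly test (its fold, p and corrected p), which was not used. No column belonged to other samples (0). Libraries were mapped to groups by their labels.

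Exon reads (gene reads for the 5583 features with no transcript) were tested with edgeR 4.0.16 in R 4.3.3: filterByExpr, TMM, a quasi-likelihood F-test over all 15 libraries and Benjamini-Hochberg adjustment over all features tested, called at 0.05. Reads were not counted by strand, so overlapping genes cannot be told apart. Intronic reads are gene reads less exon reads, scaled by their own TMM factors. The edgeR test gives no SE, so the SE printed is the absolute log2 change over the square root of its F, an approximation. Dam feeding was tested over the 9 late pregnancy libraries and as an interaction with the state. Ratios and relations to ASNS used exact permutation tests (scipy 1.17.1). Replicates are pools of animals, and p-values measure the spread between pools. Reads carry no molecular identifiers, so no counting interval is given. The count tests were checked on simulated counts drawn from a common mean profile. These lack the rise in milk protein reads, so that check does not bear on the scaling.

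Named genes are the 10 genes, all eIF2 signalling genes, SHMT1, MTHFD1, MTHFD1L and MTHFD2L, up to 3 genes in each direction with the largest called change in each other pathway list (mean of at least 1 CPM in a state), the 5 genes most like ASNS in lactation, and the gene of largest change in each marker list. A gene that this rule names in the list of other amino acid synthesis is not reported here. The genes and lists were chosen with earlier results of these data known. Alternatives were other scalings (library size, upper quartile), DESeq2 1.42.0, limma 3.58.1 on log2 of quantile-normalized RPKM + 1, other filters, uniquely placed reads, covariates (dam feeding, lane, a replicate block) and leaving out each library. Sequences were not used here.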

Additional observations from a re-analysis of the deposited data

Results flagged for a closer look

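TRIB3 in late pregnancy pool 1 of the ad libitum group (HMLP) was at 0.466 scaled RPKM, while the other 8 late pregnancy libraries lay between 0.0366 and 0.200, a gap wide enough to set that library apart from its group. It was the only such value among the 20 sets of libraries examined (10 genes in each of 2 states), and chance alone marks about 1 in 20. The same library also held the highest late pregnancy level of ASNS, at 7.22 scaled RPKM.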

How the results depend on the processing

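On library size alone 4 of the 10 genes were higher and 4 lower in lactation, with reversed log2 changes of -0.20 for ATF5, -1.16 for DDIT3, -1.32 for PHGDH and -0.55 for MTHFD2, and on introns 1 was lower (SHMT2, -0.48). Upper quartile scaling and limma each gave 1 gene lower, SHMT2. Leaving out single libraries gave 8 to 9 genes higher. At least 10 intronic reads in every library left 4 genes tested and 3 higher, since 5 no longer passed that filter. MTHFD2 over MTHFD2L differed by -0.053 with a pseudocount of 1. In late pregnancy r with ASNS turned to -0.078 for PSAT1 and -0.24 for SHMT2 on library size alone, and without HMLP pool 1 to -0.043 for DDIT3, -0.10 for TRIB3, -0.66 for PSAT1 and -0.071 for PSPH. The highest r as single libraries were left out was 0.85 for DDIT3, 0.79 for TRIB3, 0.41 for PSAT1 and 0.42 for PSPH. Leaving out single libraries, 0 to 6 relations passed in lactation (6 without HML pool 1) and 0 to 1 in late pregnancy. For dam feeding, DESeq2 called 20 features in late pregnancy and 18 for the interaction, and leaving out single libraries gave 0 to 1 and 0 to 10 features, with none of the 10 genes among them. The other causes were not tested.

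With the pool number within a dam feeding group as a replicate block, 8464 features were called in place of 9122 and 8 of the 10 genes in place of 9, with PHGDH at an adjusted p of 0.10. Deviations of same-numbered pools correlated at 0.031, 0.010 and 0.056 between the states. These values compare only pools 1 and 2 of each dam feeding group. They cannot show whether pools of different numbers share ewes. TRIB3, with 1 to 10 reads a library in late pregnancy, is limited by depth.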

Other observations

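Among the late pregnancy libraries Pearson's r of log2(CPM + 1) with ASNS ran from -0.56 for PHGDH to 0.62 for TRIB3, and no exact permutation p adjusted over the 18 relations was under 0.16. Without HMLP pool 1 and MMLP pool 3, the libraries farthest from the ASNS median, r was -0.03 for TRIB3, -0.08 for PHGDH, 0.89 for DDIT3 and -0.82 for PSAT1.

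In the marker lists, the gene of largest change was CCNB1 for proliferation (log2 change -3.35), with all 10 genes lower. COL1A2 (-1.45) led the fibroblast list, where 5 of 6 were lower, CD3G (-1.83) the T cell list, where all 5 tested were lower, and CLDN5 (-0.93) the endothelial list, where 4 of 5 were lower. ELF5 (0.81) led the luminal list, where 4 of 6 were higher. CD14 (2.13) was the 1 gene higher among 6 macrophage markers, of which 4 were lower. KRT5 (-0.90) led the myoepithelial list, where 2 of 5 were higher and 2 lower, and MZB1 (2.54) the B and plasma cell list, where 1 of 2 was higher and 1 lower. None of 4 adipocyte markers tested was called, with CIDEC (-0.61, adjusted p = 0.23) the largest.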
